A study of Mus musculus with 24 samples.

Results

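Gene expression was measured in the spleens of BALB.K mice, an inbred laboratory strain, 24 hours after 400 cGy of total body irradiation, and set against that in spleens of resting BALB.K mice (0 cGy). A centigray (cGy) is a unit of absorbed radiation dose. The arrays were chosen by the strain and dose in their titles: 6 of the 24 arrays of the series, 3 at 400 cGy and 3 at 0 cGy. Each array was a replicate made from RNA pooled from 3 mice, hybridised in 1 colour (Cy3) to an Agilent mouse gene expression array, so the spread between arrays is that between pools. The mice of all groups were otherwise untreated as far as the labels go, and neither their age nor their sex is given. BALB.K groups at 300 and 800 cGy, 3 arrays each, were used to place the 400 cGy values along the dose.

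The mouse spleen holds a white pulp of B and T lymphocytes around its arteries, and a red pulp in which macrophages clear aged red cells and in which, unlike in adult humans, red cell precursors and other blood progenitors keep dividing. Ionising radiation breaks DNA. The break is signalled by the kinase ATM and its partners to the transcription factor p53, which turns on genes that stop the cell cycle and genes that start cell death, and lymphocytes and dividing precursors are known to be among the cells that die most readily. Macrophages engulf dying cells, and DNA in the cytoplasm can start an interferon response.

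On the 6 arrays, 69.0 to 77.0% of 55681 probes were well above background, the 75th percentile of signal was 714 to 818, and the mean correlation of an array with the others of its group was 0.976 to 0.994. The number of arrays limits the precision. On replicate 2 of the 0 cGy group, 1 corner of the array, with 3357 spot positions, was dim: 830 of 2318 spots there (35.8%) lay over 2 log2 units below both other 0 cGy arrays, against 19 of 38132 spots (0.0498%) elsewhere. The probe of 1753 of the 29532 genes tested lies in that corner, and a gene below whose value turned on it is given with the corner left out. The 0 cGy arrays lay on another slide than the 400 cGy arrays, and the slide could be separated from the dose only through the 300 cGy group, which had arrays on both slides. Replicate 1 of the 400, 300 and 0 cGy groups and every 800 cGy array carried Y-linked signal that the other BALB.K arrays lacked. Exocrine pancreas genes took 0.255, 0.0050 and 0.0031% of the summed signal at 400 cGy, against 0.149, 0.0233 and 0.0055% at 0 cGy. Defining genes of the spleen's cells were present, since all 38 B cell and all 31 T cell genes examined were well above background on every array of both groups.

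Levels below are log2 signals relative to the 75th percentile of the array, given for replicates 1, 2 and 3 in turn, and a change is the 400 cGy mean minus the 0 cGy mean on this log2 scale. A gene was said to rise or fall where its adjusted p in limma was below 0.05. The fit took all 24 arrays, which include a second strain, B10.BR, so each SE and adjusted p shares the spread of both strains. The change was broad: 15216 of 29532 genes passed (51.5%), of which 7525 rose (25.5% of those tested) and 7691 fell (26%), and the median change over all genes was 0.0046. The 400 and 0 cGy arrays did not overlap for 17080 genes (57.8%). A list with a share of calls near these is like the array as a whole. In whole spleen, fewer cells of a type and less RNA per cell cannot be told apart. The same holds for a rise, since levels are relative to the array. More cells of a type, more RNA per cell and a larger share left by the loss of other cells' RNA cannot be told apart.

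Direct targets of p53 rose in most cases, and those grouped here under cell death rose in nearly all. Cdkn1a, the cyclin-dependent kinase inhibitor p21, had log2 levels of 1.91, 1.91 and 2.15 in the 400 cGy spleens, against -1.98, -2.24 and -2.27 in the 0 cGy spleens. The 2 groups were far apart and each was tight, with a change of 4.15 ± 0.10 (SE; 17.8-fold, adjusted p = 5.98e-15). All 3 of its probes rose, by 2.52 to 4.15. Among 45 direct targets there were 30 rises and 10 falls, with 5 that did not pass, and the median change was 0.93.

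Among the targets grouped under cell death, 13 of 14 rose and 1 fell, with a median of 1.37. The rises include Dcxr, a sugar reductase rather than a death gene. Bbc3, which encodes the BH3-only protein PUMA, had log2 levels of 4.99, 4.90 and 5.01 in the 400 cGy spleens, against 2.74, 2.61 and 2.34 in the 0 cGy spleens. Every 400 cGy array was more than 2 log2 units above the 0 cGy mean (change 2.40 ± 0.10, adjusted p = 1.78e-12). Bax, a pore former of the mitochondrial outer membrane, had log2 levels of 5.22, 5.22 and 5.24 in the 400 cGy spleens, against 4.14, 4.11 and 4.30 in the 0 cGy spleens, a smaller change, also without overlap, of 1.04 ± 0.08 (adjusted p = 8.76e-09). The apoptosis genes Perp (2.34 ± 0.29), Tnfrsf10b (1.76 ± 0.10), a death receptor, and Pmaip1 (1.05 ± 0.13), which encodes NOXA, also rose. Pidd1, a death domain protein that activates caspase-2, was the member that fell (-1.70 ± 0.12).

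Targets that restrain p53 itself were split, with 3 of 6 rising and 3 falling. Ccng1, cyclin G1, had log2 levels of 4.06, 4.33 and 4.43 in the 400 cGy spleens, against 2.50, 2.63 and 2.51 in the 0 cGy spleens, with no overlap between groups. Mdm2, the ubiquitin ligase that degrades p53, had log2 levels of 4.62, 4.67 and 4.79 in the 400 cGy spleens, against 3.93, -0.84 and 3.92 in the 0 cGy spleens. Its probe lies in the dim corner, and replicate 2 of the 0 cGy group stood alone at the bottom: the change was 2.36 with that array and 0.77 with the corner left out. The call was lost with the slide as a block (adjusted p = 0.213 in limma), with only the 6 arrays compared in the fit (0.193) and in a fit to the authors' values (0.077), and the first 2 of these also ended the calls of Polk, Casp4, E2f8, Ctss, Ctsl, Fcgr3, Cx3cr1, Gp6, Fn1 and Timp2, genes of the same corner given below. Mdm4, an inhibitor of p53, rose (0.93). Ppm1d, the phosphatase WIP1 that switches the damage signal off, fell (-0.86), as did the ubiquitin ligases Cop1 (-0.50) and Rchy1 (-0.37), which did not pass with scaling on spike-in probes.

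The arrest targets were divided, with 5 of 9 rising and 3 falling, and of the 16 targets in metabolism, stress and repair 9 rose and 3 fell. Phlda3, an inhibitor of the kinase Akt, had log2 levels of 5.29, 5.2 and 5.26 in the 400 cGy spleens, against 2.42, 2.51 and 2.34 in the 0 cGy spleens. Gdf15, a secreted stress cytokine, had log2 levels of 1.31, 1.23 and 1.37 in the 400 cGy spleens, against -1.96, -2.27 and -2.12 in the 0 cGy spleens. Both groups of arrays were again clearly separated, with changes of 2.83 ± 0.09 and 3.42 ± 0.21. Gadd45a, a growth arrest gene, went the other way with log2 levels of 2.0, 2.07 and 1.93 in the 400 cGy spleens, against 3.60, 4.02 and 3.60 in the 0 cGy spleens, a change of -1.74 ± 0.16 (adjusted p = 2.95e-08). Ckap2, a spindle protein, fell by more (-2.36 ± 0.14). Polk, a translesion DNA polymerase well above background on 2 of 3 arrays at 0 cGy, has its probe in the dim corner, and rose by 3.18 with that array and by 1.05 with the corner left out.

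The genes of p53 and of DNA damage signalling, kinases and other proteins together, fell or did not pass: of 10, none rose and 8 fell, with a median of -0.69. Trp53, the p53 gene, had log2 levels of -2.01, -1.92 and -2.08 in the 400 cGy spleens, against -1.15, -1.30 and -1.46 in the 0 cGy spleens, a fall of small size (-0.70 ± 0.12, adjusted p = 5.22e-05). H2ax, the histone whose phosphorylation marks DNA breaks, fell furthest (-2.55 ± 0.11), and Chek2, a checkpoint kinase, fell by 1.39. With scaling on spike-in probes, 4 of the 10 passed in place of 8, and Trp53 was not among them.

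The Bcl2 family and the caspases, a list that holds Bbc3, Bax and Pmaip1 again, were mixed, with 11 of 26 rising, 5 falling and 10 not passing. Bcl2l1, which encodes the survival protein Bcl-xL, had log2 levels of 4.53, 4.41 and 4.42 in the 400 cGy spleens, against 6.10, 6.12 and 5.90 in the 0 cGy spleens, with every 400 cGy array below every 0 cGy array (-1.59 ± 0.17). Bik, a BH3-only gene, rose (1.1 ± 0.12), and Casp2 fell (-0.91 ± 0.10). Casp4, an inflammatory caspase in the dim corner, rose by 1.42 with the corner and by 0.54 without it. The plot of single arrays shows how far the groups lie apart for genes of each programme described here and below.

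**Figure D1:**
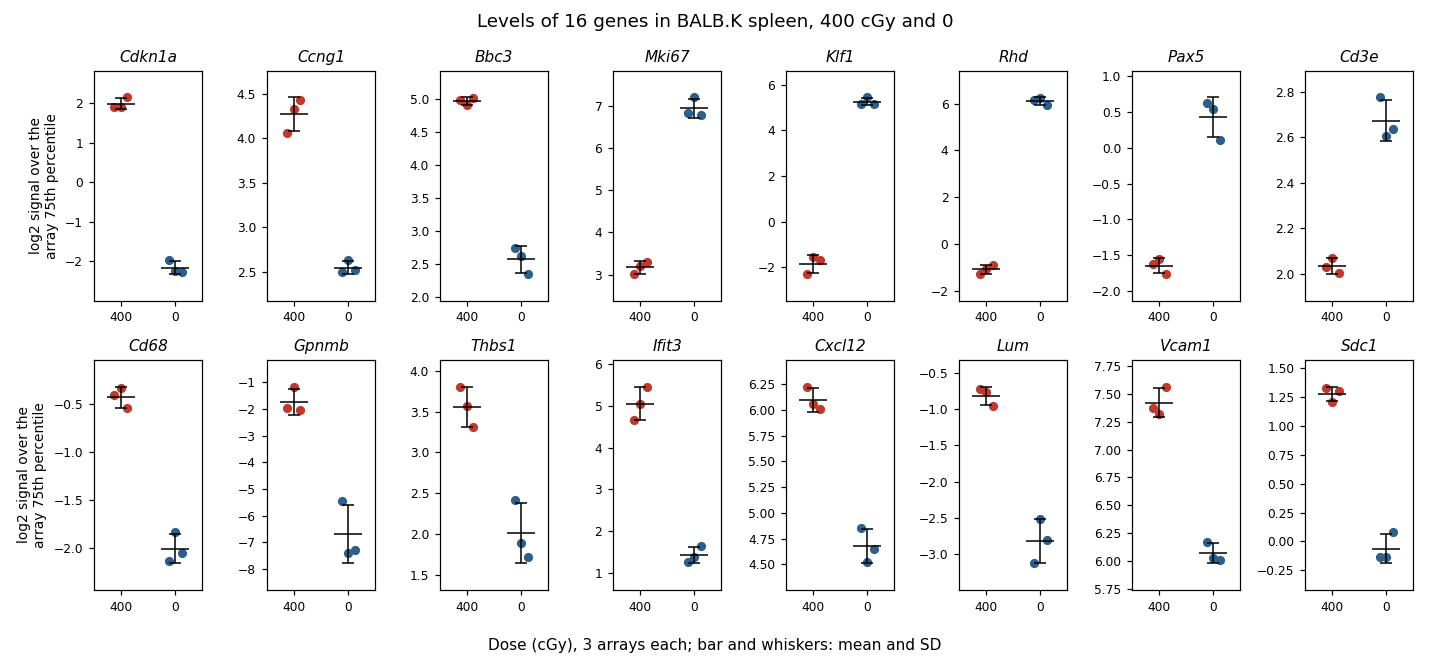
Log2 signal over the 75th percentile of the array (vertical axis) for 16 genes in the 3 spleen pools at 400 cGy (left in each panel) and the 3 at 0 cGy (right); each point is 1 array and the bar is the mean ± SD. Cdkn1a sits between 1.91 and 2.15 at 400 cGy, above -2.27 to -1.98 at 0 cGy, while Klf1 sits between -2.30 and -1.57 at 400 cGy, below 5.17 to 5.45 at 0 cGy.

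The genes of dividing cells fell together. All 31 genes of DNA replication fell (median -2.33), as did all 30 genes of mitosis (median -3.08). Mki67, which encodes the proliferation antigen Ki-67, had log2 levels of 3.02, 3.20 and 3.31 in the 400 cGy spleens, against 6.83, 7.20 and 6.79 in the 0 cGy spleens, and its groups lay more than 3 log2 units apart (-3.76 ± 0.16, 13.6-fold lower, adjusted p = 1.57e-12). Cdc6, which loads the replicative helicase at origins, had log2 levels of -2.59, -2.57 and -2.45 in the 400 cGy spleens, against 1.62, 2.33 and 1.60 in the 0 cGy spleens, the largest fall of the replication list (-4.39 ± 0.22). Birc5, the chromosomal passenger survivin, had log2 levels of 1.90, 1.93 and 2.09 in the 400 cGy spleens, against 5.79, 6.18 and 5.80 in the 0 cGy spleens, and no 400 cGy array came near the 0 cGy range.

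Of the cyclins and other engine genes, 20 of 27 fell and 6 rose. Ccne1, the cyclin of entry into S phase, had log2 levels of 0.53, 0.43 and 0.52 in the 400 cGy spleens, against 4.52, 4.83 and 4.58 in the 0 cGy spleens, a change of -4.15 ± 0.13. Ccna2, the cyclin of S and G2 phase, fell by 4.34 and E2f7, a repressor of E2F targets, by 3.70. The Ink4 and Kip inhibitors were divided: Cdkn2a had log2 levels of 2.91, 2.68 and 2.99 in the 400 cGy spleens, against 0.93, 1.05 and 1.12 in the 0 cGy spleens, with every 400 cGy array higher (1.83 ± 0.13), and Cdkn1c (1.44) and Cdkn2b (1.32) rose too, while Cdkn2c (-1.92) and Cdkn2d (-1.87) fell. The D-type cyclins Ccnd1 (0.52) and Ccnd2 (0.72) rose by less than 1 log2 unit, and neither passed with the slide as a block. E2f8, in the dim corner, fell by 3.00 with the corner and by 4.49 without it.

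The promoters of 2 cyclin genes, Ccnf and Ccnb2, are shown. They were taken, by size of fall, from the replication, engine and mitosis genes that fell and whose promoter holds the CHR element (TTTGAA). The DREAM and B-Myb complexes bind cell cycle genes through this element, which occurs more than once in each of the 2 promoters. Ccnf, cyclin F, had log2 levels of -0.69, -0.73 and -0.83 in the 400 cGy spleens, against 3.27, 3.32 and 2.73 in the 0 cGy spleens. Ccnb2, a B-type cyclin, had log2 levels of 1.38, 1.72 and 1.79 in the 400 cGy spleens, against 5.34, 5.67 and 5.32 in the 0 cGy spleens. Both had no overlap between groups, with changes of -3.86 ± 0.14 and -3.81 ± 0.15. The RefSeq promoters (GRCm38.p6, 300 bases around the gene's start, 5′ to 3′ on the gene's strand) lie at chr17:24251360-24251659 (minus strand) and chr9:70421505-70421804 (minus strand), with the CHR letters on either strand in capitals.
Ccnf: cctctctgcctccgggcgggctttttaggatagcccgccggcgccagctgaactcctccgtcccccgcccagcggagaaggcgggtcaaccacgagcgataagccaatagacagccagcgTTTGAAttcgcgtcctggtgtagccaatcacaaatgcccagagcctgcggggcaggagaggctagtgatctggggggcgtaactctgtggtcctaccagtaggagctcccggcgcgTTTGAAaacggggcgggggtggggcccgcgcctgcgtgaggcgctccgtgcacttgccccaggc
Ccnb2: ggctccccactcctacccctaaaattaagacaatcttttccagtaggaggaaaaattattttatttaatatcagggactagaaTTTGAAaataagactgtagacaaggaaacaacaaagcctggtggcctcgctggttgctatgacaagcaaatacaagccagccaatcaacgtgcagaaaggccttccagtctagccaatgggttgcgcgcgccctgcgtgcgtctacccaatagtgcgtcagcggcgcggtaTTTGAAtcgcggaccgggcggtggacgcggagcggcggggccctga
TTTGAA, on either strand, was in 19 of the 26 mitosis promoters in the table (73.1%), against 20.2% of all 27025 gene promoters, and the CCAAT box (CCAAT) in 73.1% against 41.1%. Both motifs stood together in 16 of 26 (61.5%), against 7.97% of all. In the cell cycle engine list, which holds Ccnb2, TTTGAA was in 5 of the 16 promoters of genes that fell (31.2%), CCAAT in 12 (75%) and the E2F motif TTTNNCGC in 6 (37.5%). In the replication list, TTTGAA was in 4 of 25 promoters (16%) and the E2F motif TTTNNCGC in 13 of 25 (52%), against 5.93% of all promoters and 1 of 26 (3.85%) in the mitosis list. Among the 14642 tested genes with a promoter, TTTGAA was in 16.1%, CCAAT in 42.2% and TTTNNCGC in 8.03%. These are matches of letters, and some matches of different motifs may overlap.

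DNA repair genes divided by pathway. Homologous recombination and Fanconi anaemia genes fell in 14 of 16 cases with none rising (median -2.27), among them Blm, a RecQ helicase (-3.08 ± 0.17), and Brca1 (-2.89 ± 0.22), which acts at breaks in replicated DNA. Of 8 end joining genes, which repair breaks in any phase of the cycle, 3 fell and 1 rose, and of 11 excision and mismatch repair genes 6 fell. The share of end joining genes called was near the 51.5% over all genes. The 3 that fell, Polm, Xrcc5 and Nhej1, did not pass with scaling on spike-in probes (adjusted p = 0.149, 0.183 and 0.12 in limma). The gene that rose, Lig4, the end joining ligase, changed by only 0.31, stood at -0.070 with the slide as a block, and did not pass without any 1 of the 400 cGy replicates or without replicate 2 or 3 of the 0 cGy group. With the dim corner left out, 25 of the 35 repair genes fell, in place of 23.

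The erythroid list held the largest single falls named here. Klf1, the erythroid Krüppel-like factor, had log2 levels of -2.30, -1.57 and -1.71 in the 400 cGy spleens, against 5.17, 5.45 and 5.17 in the 0 cGy spleens, and the 2 groups lay more than 6 log2 units apart (-7.12 ± 0.29, 139-fold lower, adjusted p = 1.28e-12). Gata1, which directs red cell and platelet precursors, had log2 levels of 2.12, 1.86 and 1.62 in the 400 cGy spleens, against 4.98, 5.26 and 5.02 in the 0 cGy spleens (-3.22 ± 0.25). Of 51 erythroid genes, 42 fell, 2 rose and 7 did not pass, with a median of -2.91. On the same arrays, erythroid genes took 0.686, 0.622 and 0.658% of the summed signal at 400 cGy, against 1.28, 1.34 and 1.22% at 0 cGy.

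Membrane and blood group genes moved most, with 11 of 13 falling, a median of -4.97, and 1 rise, that of the membrane skeleton gene Sptb (1.01). Rhd, the Rh blood group membrane protein, had log2 levels of -1.27, -1.04 and -0.88 in the 400 cGy spleens, against 6.14, 6.25 and 5.94 in the 0 cGy spleens (-7.17 ± 0.31, 144-fold lower). Ermap, an erythroblast membrane protein, fell by 6.19 and Kel, the Kell blood group peptidase, by 5.94. Add2, an adductin of the red cell membrane skeleton that is not in the list, had log2 levels of -4.15, -3.58 and -3.57 in the 400 cGy spleens, against 3.35, 3.63 and 3.18 in the 0 cGy spleens. No 400 cGy array of Add2 or Rhd was within 6 log2 units of the 0 cGy range. All 12 genes of heme synthesis and iron uptake fell (median -2.65), led by Tfrc, the transferrin receptor, which fell by 4.43.

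The globins stood apart from their chaperone. Ahsp, which binds free alpha globin, had log2 levels of -0.99, -0.56 and -0.58 in the 400 cGy spleens, against 6.56, 6.93 and 6.65 in the 0 cGy spleens (-7.42 ± 0.37, 172-fold lower). Hba-a1, an alpha globin, had log2 levels of 9.04, 8.86 and 9.03 in the 400 cGy spleens, against 9.18, 9.31 and 9.14 in the 0 cGy spleens. Hbb-bt, an adult beta globin, had log2 levels of 8.33, 8.17 and 8.35 in the 400 cGy spleens, against 8.68, 8.68 and 8.56 in the 0 cGy spleens. The arrays at 400 cGy were slightly lower for both, and neither change passed (-0.23 ± 0.23, adjusted p = 0.415, and -0.36 ± 0.32, adjusted p = 0.363). Of the 5 genes in this group, Ahsp fell, the embryonic globin Hbb-y fell (-2.30) and was well above background on 1 of 3 arrays at 400 cGy, and the other 3 did not pass. Globin genes have near-identical copies, so a probe may read more than 1 of them. Alas2, which makes the first intermediate of heme in red cell precursors, lay between, with log2 levels of 5.36, 5.10 and 5.34 in the 400 cGy spleens, against 7.32, 7.44 and 7.17 in the 0 cGy spleens (-2.04 ± 0.41).

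The promoters of Btnl10, which had the largest fall of all genes named here, and of Rhd are shown for their GATA motifs (AGATAA on either strand, in capitals), the letters that GATA1 binds. Btnl10, a butyrophilin-like gene, had log2 levels of -3.97, -3.84 and -4.02 in the 400 cGy spleens, against 3.49, 3.62 and 3.36 in the 0 cGy spleens, a change of -7.44 ± 0.35 (173-fold lower). The promoters (RefSeq, GRCm38.p6, 5′ to 3′) lie at chr11:58917658-58917957 (plus strand) and chr4:134864286-134864585 (plus strand).
Btnl10: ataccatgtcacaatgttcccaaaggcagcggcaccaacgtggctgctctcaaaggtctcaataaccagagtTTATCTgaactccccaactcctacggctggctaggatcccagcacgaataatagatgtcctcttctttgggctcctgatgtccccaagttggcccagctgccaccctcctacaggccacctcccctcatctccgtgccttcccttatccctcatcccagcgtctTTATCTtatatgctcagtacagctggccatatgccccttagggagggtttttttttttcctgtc
Rhd: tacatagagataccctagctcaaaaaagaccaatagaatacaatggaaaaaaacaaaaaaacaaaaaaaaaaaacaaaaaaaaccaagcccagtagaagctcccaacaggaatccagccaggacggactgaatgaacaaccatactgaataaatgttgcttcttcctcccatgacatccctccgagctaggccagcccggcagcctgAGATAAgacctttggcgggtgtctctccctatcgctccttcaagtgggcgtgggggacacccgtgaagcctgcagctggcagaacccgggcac
AGATAA was in 10 of the 27 promoters of erythroid genes that fell and are in the table (37%), against 12.7% of all promoters, and CACCC, the core letters of Klf1 sites, in 23 of 27 (85.2%) against 59.8%. Among tested genes with a promoter, AGATAA was in 9.83% and CACCC in 64.9%. Matches of these 2 motifs cannot overlap.

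Probes of the same gene did not always move together. A Dmtn probe at chr14:71001871-71001930 (mm9, minus strand) had log2 levels of 1.73, 1.51 and 1.56 in the 400 cGy spleens and 1.45, 1.52 and 1.46 in the 0 cGy spleens. A second Dmtn probe, at chr14:71003548-71003607 (minus strand), had -4.30, -4.44 and -4.16 at 400 cGy, against 0.57, 0.77 and -0.23 at 0 cGy. Dmtn, the red cell membrane protein dematin, thus did not pass by its brighter probe (0.12 ± 0.25, adjusted p = 0.712) and fell by its dimmer one (-4.67 ± 0.22, adjusted p = 8.67e-12). The probes of Xpo7, a nuclear exporter used in erythroblasts, also moved apart, by 0.78 ± 0.13 and by -1.72 ± 0.21.

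Genes of red pulp macrophages that recycle heme and iron moved the other way from the erythroid list, with 8 of 13 rising and 1 falling (median 1.02). Hmox1, heme oxygenase, had log2 levels of 7.21, 7.43 and 7.75 in the 400 cGy spleens, against 5.28, 6.14 and 6.07 in the 0 cGy spleens (1.63 ± 0.19). Slc40a1, the iron exporter ferroportin, had log2 levels of 7.07, 7.08 and 7.25 in the 400 cGy spleens, against 5.71, 6.13 and 6.02 in the 0 cGy spleens (1.18 ± 0.11). Spic, the transcription factor of red pulp macrophages, had log2 levels of 6.50, 6.57 and 6.80 in the 400 cGy spleens, against 5.22, 5.49 and 5.69 in the 0 cGy spleens (1.16). The arrays of the groups did not overlap for any of the 3. Blvrb, a biliverdin reductase also abundant in red cells, was the member that fell (-1.67).

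Of 11 genes of blood stem and progenitor cells, 8 rose and 2 fell. Ly6a, the stem cell antigen Sca-1, which interferon also induces, had log2 levels of 3.65, 4.38 and 4.60 in the 400 cGy spleens, against 1.28, 1.62 and 1.71 in the 0 cGy spleens (2.67 ± 0.22). Meis1, a homeobox gene of stem cells, rose by 1.20. Myb, which early progenitors need to divide, fell by 2.38, and Kit, the receptor of stem cell factor, by 0.38, a call lost with spike-in scaling. The plot of all lists sets these changes side by side with those of the other cell types of the spleen.

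**Figure D2:**
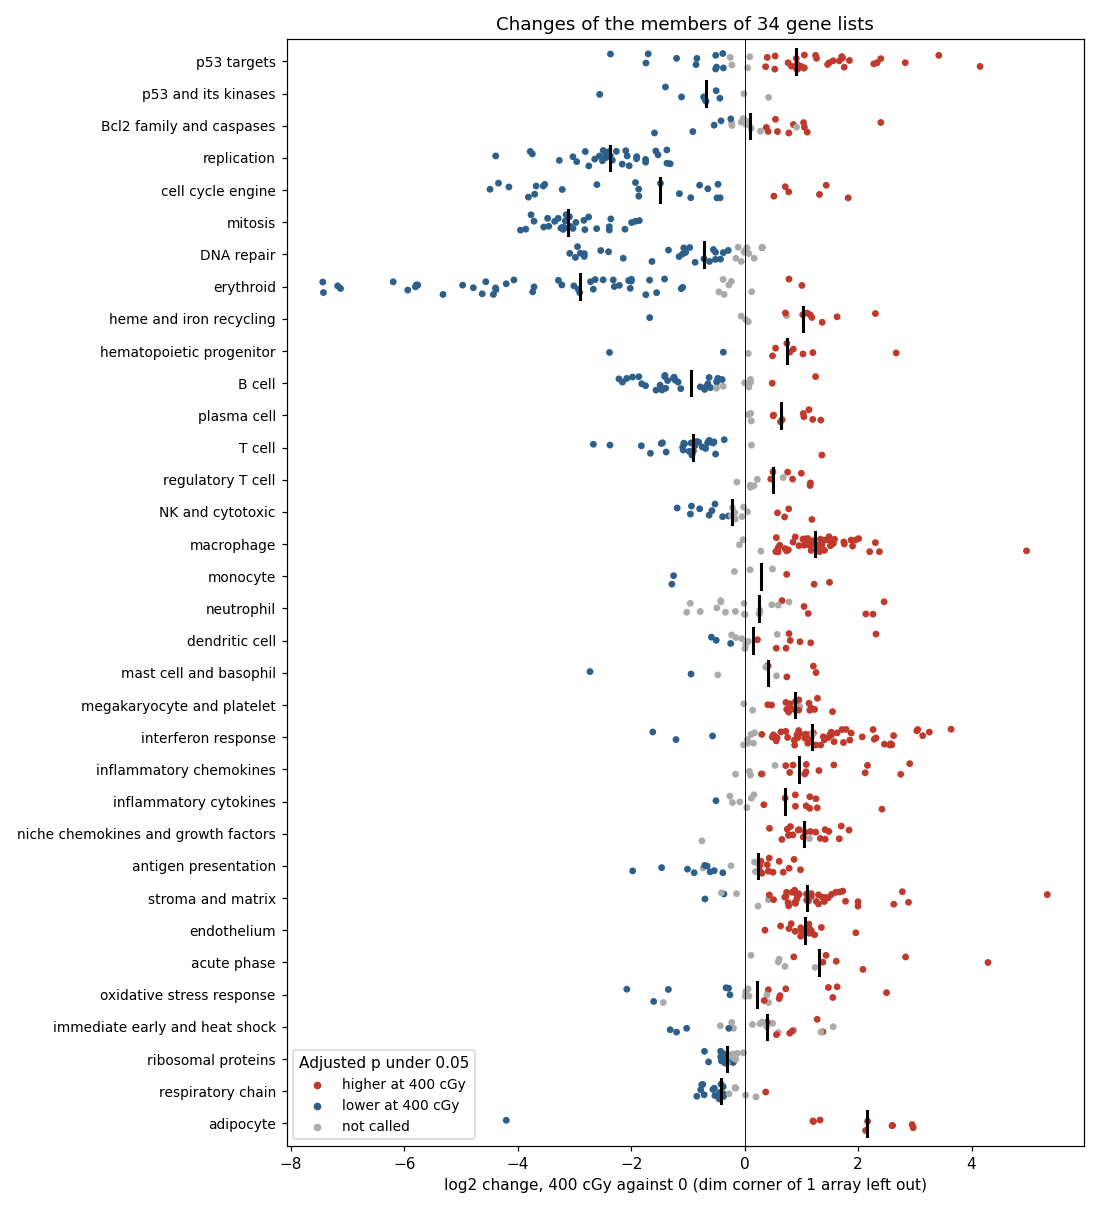
Log2 change at 400 against 0 cGy (horizontal axis) of every tested member of 34 gene lists, with the dim corner of 1 array left out; red points rose, blue points fell, grey points did not pass and the black bar is the median. The mitosis and erythroid medians are -3.12 and -2.91, while most members of the macrophage and interferon lists lie to the right of 0.

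B cell genes fell and plasma cell genes rose. Pax5, the transcription factor that keeps B cell identity, had log2 levels of -1.63, -1.55 and -1.77 in the 400 cGy spleens, against 0.63, 0.54 and 0.11 in the 0 cGy spleens, with every 400 cGy array below every 0 cGy array (-2.08 ± 0.17, adjusted p = 1.11e-08). Of 38 B cell genes, 29 fell, 2 rose and 7 did not pass, with a median of -0.95. Of the receptor and surface genes, 18 of 19 fell (median -1.25). Vpreb3, expressed in immature B cells, had log2 levels of 1.81, 1.88 and 1.85 in the 400 cGy spleens, against 4.03, 4.11 and 4.05 in the 0 cGy spleens, and Fcer2a, the IgE receptor CD23 of follicular B cells, had log2 levels of -1.38, -1.25 and -1.42 in the 400 cGy spleens, against 0.79, 0.92 and 0.70 in the 0 cGy spleens. For both, the 2 groups lay more than 1.5 log2 units apart. The members that rose were Fas (1.25), a death receptor that is also a p53 target, and S1pr2 (0.49), a receptor that holds B cells in germinal centres, which did not pass with the slide as a block. Rgs13, a germinal centre signalling regulator, fell (-1.41).

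Of 12 plasma cell genes, 9 rose and none fell (median 0.65). Sdc1, the plasma cell surface proteoglycan CD138, had log2 levels of 1.33, 1.21 and 1.30 in the 400 cGy spleens, against -0.14, -0.14 and 0.08 in the 0 cGy spleens, and the groups did not overlap (1.34 ± 0.12). Tnfrsf17, the survival receptor BCMA, rose by 1.13 and Prdm1, the plasma cell regulator Blimp-1, by 1.04. Sdc1 and Prdm1 are also expressed by other cells of the spleen, and their source was not tested.

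T cell genes fell as well, with 16 of 17 receptor and signalling genes and 13 of 14 genes of naive identity and homing lower. Cd3e, a chain of the T cell receptor complex, had log2 levels of 2.03, 2.07 and 2.0 in the 400 cGy spleens, against 2.77, 2.61 and 2.63 in the 0 cGy spleens, a small fall without overlap (-0.64 ± 0.10, adjusted p = 4.46e-05) that was not past the test with scaling on spike-in probes. Cd4 had log2 levels of 2.52, 2.55 and 2.66 in the 400 cGy spleens, against 2.47, 2.55 and 2.34 in the 0 cGy spleens, groups that overlapped (0.12 ± 0.10, adjusted p = 0.331). Cd8b1, a chain of the CD8 co-receptor, had log2 levels of -0.64, -0.76 and -0.80 in the 400 cGy spleens, against 1.83, 1.58 and 1.5 in the 0 cGy spleens (-2.37 ± 0.13), and Cd8a fell by 1.38. Of 31 T cell genes, 29 fell and 1 rose (median -0.87). Dapl1, a gene of resting T cells, had log2 levels of -0.69, -0.88 and -0.72 in the 400 cGy spleens, against 2.13, 1.82 and 1.75 in the 0 cGy spleens, the largest fall of the list (-2.67 ± 0.13). S1pr1, which lets naive cells leave the spleen, fell by 1.82 and Lef1, a transcription factor of naive T cells, by 1.45. The member that rose was Igfbp4, a binding protein of insulin-like growth factors, with log2 levels of 1.31, 1.16 and 0.75 in the 400 cGy spleens, against -0.18, -0.38 and -0.30 in the 0 cGy spleens.

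Regulatory T cell genes did not fall. Of 13, 7 rose and none fell (median 0.50). Il2ra, the high-affinity interleukin 2 receptor chain, had log2 levels of 0.84, 0.91 and 0.80 in the 400 cGy spleens, against -0.38, -0.29 and -0.26 in the 0 cGy spleens (1.16 ± 0.10). Foxp3, the factor that defines these cells, had log2 levels of -1.06, -0.98 and -0.97 in the 400 cGy spleens, against -1.25, -1.16 and -1.27 in the 0 cGy spleens, values that did not overlap but did not pass (0.22 ± 0.10, adjusted p = 0.0572). With the slide as a block 3 of the 13 rose, and with spike-in scaling 4 did.

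NK and cytotoxic cell genes were mixed, with 4 of 20 rising, 8 falling and 8 not passing. Ncr1, the NK cell receptor NKp46, did not pass (-0.23 ± 0.17, adjusted p = 0.276). Eomes, a transcription factor of NK and memory T cells, fell by 1.19, Klrg1, an inhibitory receptor, fell by 0.96, and Klrk1, which encodes the activating receptor NKG2D, rose by 1.19. Gzmb (0.78) and Fasl (0.71), both of cytotoxic killing, and Il2rb (0.58) were the other risers, and the first 2 were lost with the slide as a block. Leaving out replicate 1 of the 400 cGy group left 5 falls, spike-in scaling 4, and the slide as a block 2 rises.

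Macrophage genes rose as a group: 43 of 46 rose and none fell, with a median of 1.31 (1.24 with the dim corner left out). Cd68, an endosomal glycoprotein of macrophages, had log2 levels of -0.41, -0.33 and -0.54 in the 400 cGy spleens, against -2.13, -1.84 and -2.06 in the 0 cGy spleens, groups more than 1 log2 unit apart (1.58 ± 0.20). Every one of the 15 engulfment and tissue macrophage genes rose (median 1.49). Vsig4, a complement receptor, rose by 2.38 ± 0.28, Cd163, the hemoglobin scavenger receptor, by 2.31 ± 0.38, and Mertk, a receptor for dying cells, by 1.90. Gpnmb, a lysosomal glycoprotein of lipid-laden macrophages, had log2 levels of -1.96, -1.16 and -2.06 in the 400 cGy spleens, against -5.44, -7.38 and -7.27 in the 0 cGy spleens. It was well above background on 1 of 3 arrays at 0 cGy, and replicate 1 of that group was the highest of the 3, still more than 3 log2 units below the 400 cGy arrays (4.97 ± 0.34).

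Of 17 lysosomal genes 15 rose, and of 14 Fc receptor and other surface genes 13 did. Fcgr1, the high-affinity IgG receptor, had log2 levels of 1.78, 1.73 and 1.86 in the 400 cGy spleens, against -0.51, -0.45 and -0.29 in the 0 cGy spleens (2.20 ± 0.12), and Fcgr4 rose by 1.96. Lgmn, an endopeptidase of lysosomes, rose by 1.75. The cathepsins Ctss and Ctsl and the receptor Fcgr3 lie in the dim corner: their changes were 2.18, 2.17 and 3.26 with it and 0.62, 1.17 and 1.41 without it, and all 3 rose both times. With the slide as a block, 34 of 46 macrophage genes rose and none fell.

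Monocyte genes divided, with 3 of 8 rising (Ly6c1, Cx3cr1 and Treml4, all in the dim corner, by 1.97, 1.67 and 1.1 with it and by 1.5, 0.74 and 1.23 without it) and 2 falling. Ccr2, the receptor by which monocytes leave the marrow, had log2 levels of 0.49, 0.21 and 0.10 in the 400 cGy spleens, against 1.49, 1.56 and 1.60 in the 0 cGy spleens (-1.28 ± 0.15), and Spn, the sialophorin CD43, fell by 1.25. Of 23 neutrophil genes, 6 rose, none fell and 17 did not pass, a share of rises near the 25.5% over all genes. The arrays did not overlap for 8 of the 23, a smaller share than the 57.8% over all genes. S100a8, the abundant neutrophil calgranulin, had log2 levels of 5.11, 5.89 and 5.89 in the 400 cGy spleens, against 5.43, 5.83 and 5.63 in the 0 cGy spleens, groups that overlapped (-0.0037 ± 0.25, adjusted p = 0.992). The risers were genes of mature cells, such as Stfa1, a stefin (2.46 ± 0.28), and Il1r2, a decoy receptor (2.26 ± 0.14), and none of the 7 precursor granule genes passed in limma, while 2 were lower at an unadjusted p under 0.05. Mpo, myeloperoxidase of neutrophil precursors, had log2 levels of 0.68, 2.47 and 2.37 in the 400 cGy spleens, against 2.68, 3.19 and 2.53 in the 0 cGy spleens, with replicate 1 the lowest at 400 cGy.

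Dendritic cell genes rose in 8 of 18 cases and fell in 3. Bst2, the membrane protein tetherin, which plasmacytoid cells express and interferon induces, rose by 2.32. Cd209a (-0.59), Xcr1 (-0.50) and Clec9a (-0.25), surface receptors of dendritic cell subsets, fell. With spike-in scaling, 7 rose and none fell, and Clec9a also did not pass without replicate 2 or 3 of the 400 cGy group or replicate 1 of the 0 cGy group. Of 10 mast cell and basophil genes, 5 rose and 2 fell. The basophil protease Mcpt8 (-2.72; well above background on 2 of 3 arrays at 400 cGy) and Fcer1a (-0.94), the IgE receptor chain, fell. The mast cell protease Cma1, in the dim corner, rose by 2.12 with it and did not pass without it (0.56). Fcer1a did not pass without replicate 3 of the 400 cGy group or replicate 1 of the 0 cGy group, and stood at 0.37 with the slide as a block.

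Megakaryocyte and platelet genes rose in 18 of 21 cases, with none falling (median 0.89). Thbs1, the platelet and matrix protein thrombospondin 1, had log2 levels of 3.80, 3.57 and 3.31 in the 400 cGy spleens, against 2.42, 1.89 and 1.71 in the 0 cGy spleens (1.55 ± 0.20). Vwf, von Willebrand factor of platelets and endothelium, had log2 levels of 4.47, 4.37 and 4.22 in the 400 cGy spleens, against 3.56, 3.21 and 2.85 in the 0 cGy spleens. Both were higher on every 400 cGy array. Pf4, a platelet chemokine, had log2 levels of 6.22, 5.92 and 5.90 in the 400 cGy spleens, against 5.73, 5.47 and 5.42 in the 0 cGy spleens, a smaller rise (0.47 ± 0.17, adjusted p = 0.0233) that was lost when replicate 1 of the 400 cGy group or replicate 2 or 3 of the 0 cGy group was left out. Gp5 and Gp6, platelet adhesion receptors in the dim corner, rose by 2.72 and 2.53 with it and by 1.28 and 0.94 without it.

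The interferon response rose. Ifit3, an RNA-binding antiviral effector, had log2 levels of 4.67, 5.04 and 5.47 in the 400 cGy spleens, against 1.25, 1.38 and 1.64 in the 0 cGy spleens, with every 400 cGy array more than 3 log2 units above every 0 cGy array (3.64 ± 0.19, 12.5-fold, adjusted p = 2.05e-11). Mx1, an antiviral GTPase, had log2 levels of 2.83, 3.33 and 3.71 in the 400 cGy spleens, against -0.02, 0.10 and 0.03 in the 0 cGy spleens (3.26 ± 0.23). Of 61 interferon genes, 51 rose, 3 fell and 7 did not pass, with a median of 1.20, and 38 rose with the slide as a block (median 0.78). Antiviral effectors rose in 23 of 26 cases (median 1.73) and all 13 interferon-inducible GTPases rose (median 0.95), among them Gbp6 (2.07) and Iigp1 (1.53). Of 16 sensors and regulators 13 rose, Irf7, the amplifier of the type I response, by 1.79.

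The effectors that went the other way were Isg20, an antiviral exonuclease, with log2 levels of 4.86, 4.93 and 5.05 in the 400 cGy spleens, against 6.45, 6.84 and 6.41 in the 0 cGy spleens (-1.62 ± 0.17), and Rsad2, viperin, with log2 levels of 4.30, 4.46 and 4.84 in the 400 cGy spleens, against 5.75, 5.82 and 5.66 in the 0 cGy spleens (-1.21 ± 0.21). For both, the 400 cGy arrays lay below every 0 cGy array. Of the interferons themselves, Ifnb1, interferon beta, gave little signal, well above background on 1 of 3 arrays at 400 cGy and on none at 0 cGy. Ifng, interferon gamma, was well above background on every array of both groups and did not pass (0.05, adjusted p = 0.769 in limma). Of the receptor chains, Ifnar1 fell by 0.56, while Ifnar2 rose by 0.56 and Ifngr2 by 0.53.

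The promoters of Ifit3 and of Oas1g, an oligoadenylate synthetase, are shown for the interferon-stimulated response element, searched on either strand as GAAA, any 2 bases and GAAA again, and printed in capitals. Oas1g had log2 levels of -5.22, -5.16 and -4.42 in the 400 cGy spleens, and was not well above background on any 0 cGy array, so its level was at least 2.13-fold higher at 400 cGy. Such a bound sets the 400 cGy mean against the lowest signal that is well above background. Both promoters hold the element in 2 places, which overlap in Oas1g, and lie at chr19:34583279-34583578 (plus strand) and chr5:120887564-120887863 (minus strand) in GRCm38.p6 (RefSeq, 5′ to 3′).
Ifit3: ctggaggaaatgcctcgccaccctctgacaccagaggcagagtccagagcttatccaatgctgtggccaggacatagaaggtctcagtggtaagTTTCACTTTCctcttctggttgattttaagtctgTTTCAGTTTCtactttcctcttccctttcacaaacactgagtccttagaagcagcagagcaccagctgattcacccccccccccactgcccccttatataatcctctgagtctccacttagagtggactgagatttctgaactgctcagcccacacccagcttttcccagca
Oas1g: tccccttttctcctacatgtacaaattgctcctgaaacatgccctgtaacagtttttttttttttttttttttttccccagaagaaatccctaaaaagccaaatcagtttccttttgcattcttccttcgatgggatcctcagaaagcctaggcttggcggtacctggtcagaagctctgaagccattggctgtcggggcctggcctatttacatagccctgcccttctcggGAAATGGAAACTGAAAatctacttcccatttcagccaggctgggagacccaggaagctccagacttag
The element was in 22 of the 37 promoters in the table of interferon genes that rose (59.5%), against 3.99% of all 27025 promoters and 3.9% of those of tested genes.

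Inflammatory chemokines rose in 13 of 18 cases and none fell (median 0.96). Ccl24, eotaxin-2, made by macrophages, had log2 levels of 3.66, 3.82 and 3.94 in the 400 cGy spleens, against 1.15, 1.91 and 1.86 in the 0 cGy spleens (2.17 ± 0.16), and Ccl8 rose by 2.12. Ccl12, a monocyte attractant well above background on 2 of 3 arrays at 0 cGy and in the dim corner, rose by 3.31 with it and by 2.91 without it. Of 17 cytokines, 10 rose and 1 fell, Ltb, lymphotoxin beta (-0.50), which did not pass with quantile normalization or spike-in scaling. Il18bp, the secreted inhibitor of interleukin 18, had log2 levels of 2.40, 2.62 and 2.65 in the 400 cGy spleens, against 0.04, 0.29 and 0.08 in the 0 cGy spleens (2.42 ± 0.12), while the classical inflammatory cytokines Il6 (0.12, adjusted p = 0.636) and Tnf (-0.09, adjusted p = 0.662) did not pass.

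Chemokines and growth factors of the stromal niche rose in 20 of 22 cases, with none falling (median 1.11). Cxcl12, the chemokine that holds stem and plasma cells in place, had log2 levels of 6.23, 6.06 and 6.01 in the 400 cGy spleens, against 4.86, 4.52 and 4.65 in the 0 cGy spleens (1.42 ± 0.11). Ccl19, which draws T cells and dendritic cells into the white pulp, had log2 levels of 4.98, 4.66 and 4.93 in the 400 cGy spleens, against 3.05, 3.28 and 3.14 in the 0 cGy spleens (1.70 ± 0.10). Tnfsf13b, the B cell survival factor BAFF, had log2 levels of 2.48, 2.44 and 2.44 in the 400 cGy spleens, against 0.74, 0.58 and 0.51 in the 0 cGy spleens (1.84 ± 0.12). No 400 cGy array fell within the 0 cGy range for any of them. Il15, which sustains NK and memory T cells, rose by 1.67, and Igf1 by 1.42.

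Antigen presentation divided by class. Of 12 class II genes, 9 fell and 1 rose, the costimulator Cd86 (0.87; median over the 12, -0.68), and of 14 class I genes 12 rose and none fell (median 0.41). H2-Ob, a B cell regulator of class II loading, had log2 levels of 3.05, 3.23 and 3.18 in the 400 cGy spleens, against 5.25, 5.04 and 5.09 in the 0 cGy spleens (-1.97 ± 0.17), and H2-Ab1, a class II chain, fell by 0.89. On the class I side, the genes that rose most were H2-D1, a class I heavy chain (0.98), whose call was lost with the slide as a block, and Tapbp (0.78), Nlrc5 (0.68), the class I transactivator, and Tap1 (0.61), a peptide transporter. Over all 26 genes, 13 rose and 9 fell, 4 rose and 7 fell with the slide as a block, and 8 rose and 9 fell without replicate 3 of either the 400 or the 0 cGy group. Spike-in scaling gave 8 rises and 5 falls.

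Stromal and matrix genes rose in 38 of 44 cases and fell in 2 (median 1.17, and 1.09 with the dim corner left out). Mmp2, the gelatinase of fibroblasts, had log2 levels of 1.5, 1.61 and 1.35 in the 400 cGy spleens, against -1.43, -1.33 and -1.44 in the 0 cGy spleens (2.89 ± 0.19). Lum, the collagen-binding proteoglycan lumican, had log2 levels of -0.73, -0.76 and -0.96 in the 400 cGy spleens, against -3.13, -2.52 and -2.80 in the 0 cGy spleens (2.0 ± 0.21). Dcn, decorin, had log2 levels of 4.82, 4.99 and 5.02 in the 400 cGy spleens, against 3.28, 3.11 and 3.25 in the 0 cGy spleens. The groups were apart by at least 1 log2 unit for all 3 genes. Matn1, a matrilin of cartilage matrix, had log2 levels of 0.44, 0.14 and 0.41 in the 400 cGy spleens, against -4.92, -5.64 and -5.09 in the 0 cGy spleens, the largest rise named here (5.54 ± 0.17). It was well above background on 2 of 3 arrays at 0 cGy, and with the dim corner left out the rise was 5.33. Lox, which crosslinks collagen, rose by 2.0, Mmp13 by 2.63 and the collagen Col6a1 by 1.37. Mmp3, the matrix protease stromelysin 1, also in the dim corner, rose by 3.53 with it and by 2.78 without it. Fn1, fibronectin, and Timp2, a protease inhibitor, both in the dim corner, rose by 2.55 and 2.42 with it and by 0.88 and 0.77 without it. The 2 genes that fell were Plaur (-0.70), the urokinase receptor, and Col5a1 (-0.37), a collagen chain. The call of Col5a1 was lost with spike-in scaling (adjusted p = 0.34 in limma), with the slide as a block, with only the 6 arrays compared, and without replicate 1 or 3 of the 400 cGy group or replicate 2 or 3 of the 0 cGy group.

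All 18 endothelial genes rose (median 1.12). Vcam1, the adhesion molecule of endothelium, stroma and red pulp macrophages, had log2 levels of 7.37, 7.32 and 7.57 in the 400 cGy spleens, against 6.17, 6.03 and 6.01 in the 0 cGy spleens (1.35 ± 0.09). Lyve1, a hyaluronan receptor of sinusoidal and lymphatic endothelium, rose by 1.96. In the acute phase list, 7 of 12 rose and none fell. Saa3, a serum amyloid A protein, had log2 levels of -2.47, -0.50 and -0.38 in the 400 cGy spleens, against -6.20, -6.78 and -4.61 in the 0 cGy spleens, a change of 4.75 ± 0.71. Its 0 cGy arrays lay below every 400 cGy array but were well above background in 1 of 3 cases, its probe is in the dim corner (4.29 with the corner left out), and its call was lost with the slide as a block (2.88, adjusted p = 0.074 in limma). Serpina3n, a secreted protease inhibitor, had log2 levels of 0.89, 0.21 and -0.14 in the 400 cGy spleens, against -1.96, -2.55 and -3.04 in the 0 cGy spleens (2.84 ± 0.34), with replicate 1 the highest in both groups.

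Genes of the oxidative stress response had no common direction, with 10 of 22 rising and 6 falling. Gpx3, the secreted glutathione peroxidase, rose by 2.50, while Nqo1, a quinone reductase, fell by 1.60, Gclc, which limits glutathione synthesis, by 1.34, and Prdx2, the abundant peroxiredoxin of red cells, by 2.08. Of 6 heat shock genes, 4 fell and 1 rose, with the chaperones Hsph1 falling by 1.31 and Hsp90aa1 by 1.20, and Hspb1 rising by 0.84, a call lost without replicate 1 of the 400 cGy group or replicate 2 or 3 of the 0 cGy group. Of 16 immediate early genes 5 rose, none fell and 11 did not pass, a share of rises not far from the 25.5% over all genes. Among the risers was Ier3 (1.38), an early response gene of cell survival. Ribosomal protein genes fell in 13 of 20 cases by a median of 0.30 on the log2 scale over the list, which 4 alternatives reduced to 7 or fewer falls. Respiratory chain genes fell in 14 of 21 cases (median -0.42), and in 6 with spike-in scaling.

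Genes of fat, in contrast to these small shifts, rose by a large amount with wide spread. Of 10 adipocyte genes, 9 rose and 1 fell (median 2.32). Cidec, a lipid droplet protein, had log2 levels of 1.08, -0.10 and -1.54 in the 400 cGy spleens, against -1.58, -3.09 and -4.82 in the 0 cGy spleens, with replicate 1 the highest and replicate 3 the lowest in both groups, and the lowest 400 cGy array just above the highest 0 cGy array. It did not pass without replicate 1 of the 400 cGy group or replicate 3 of the 0 cGy group, or with the slide as a block. The gene that fell was Slc2a4, a glucose transporter of muscle and fat (-4.20), which also stands in the erythroid list and is counted among the falls there. Adipocyte genes took 0.0460, 0.0446 and 0.0332% of the summed signal at 400 cGy, against 0.0147, 0.0153 and 0.0130% at 0 cGy, and with the slide as a block 2 of the 10 rose. Their part in the stromal and endothelial rises was not tested. None of 23 exocrine pancreas genes and none of 5 sex-linked genes passed in limma, also at an unadjusted p under 0.05.

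The 400 cGy arrays were also compared with the doses on either side, in the same fit over all 24 arrays. Against 300 cGy, 1439 of 29532 genes passed (4.87%), 842 higher at 400 cGy (2.85%) and 597 lower (2.02%), and the arrays did not overlap for 27.9% of genes. When only the 6 arrays at 400 and 300 cGy were fitted, 2 genes passed and 0 of the 1439 did, so every call between these doses below, single genes included, was lost in that fit. Against 800 cGy, 5564 passed (18.8%), 2700 higher at 400 cGy (9.14%) and 2864 lower (9.7%), and the arrays did not overlap for 47.7%. These comparisons share the 400 cGy arrays with each other and with the comparison against 0 cGy.

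Lymphocyte genes were graded over the doses. Over the B cell list, the median difference of an array from the 0 cGy mean averaged -0.52 at 300 cGy, -0.96 ± 0.13 at 400 cGy (SD, n = 3) and -1.58 at 800 cGy, and over the T cell list -0.51, -0.88 ± 0.11 and -1.67 at the same doses. Pax5 had log2 levels of -0.73, -0.74 and -0.92 at 300 cGy, -1.63, -1.55 and -1.77 at 400 cGy and -3.29, -3.20 and -3.36 at 800 cGy, with no overlap between neighbouring doses. Its level at 400 cGy differed by -0.85 ± 0.17 from that at 300 cGy (adjusted p = 0.0129) and by 1.64 ± 0.17 from that at 800 cGy (adjusted p = 5.84e-06). Dapl1 had 0.18, 0.46 and 0.46 at 300 cGy, -0.69, -0.88 and -0.72 at 400 cGy and -2.55, -2.74 and -2.73 at 800 cGy, also without overlap, with differences of -1.13 ± 0.13 and 1.91 ± 0.13 at 400 cGy against 300 and 800 cGy.

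Of 38 B cell genes, 19 were lower at 400 than at 300 cGy and none higher, and of 31 T cell genes 14 were lower and none higher. These counts moved with the setting. B cell genes were lower in 9 to 11 cases without replicate 1 of the 400 cGy group or replicate 2 or 3 of the 300 cGy group, in 2 with spike-in scaling and in none when only the 6 arrays compared entered the fit. T cell genes were lower in 24 cases with median scaling, in 5 to 8 without any 1 of the 400 cGy replicates or replicate 2 or 3 of the 300 cGy group, in 1 with spike-in scaling and in none with only the 6 arrays. Against 800 cGy, 22 B cell genes and 27 T cell genes were higher at 400 cGy, and Syk and Igfbp4 were lower, and spike-in scaling gave 10 and 8 higher. The plot of lymphocyte genes by dose shows the steps for 8 of these genes array by array.

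**Figure D3:**
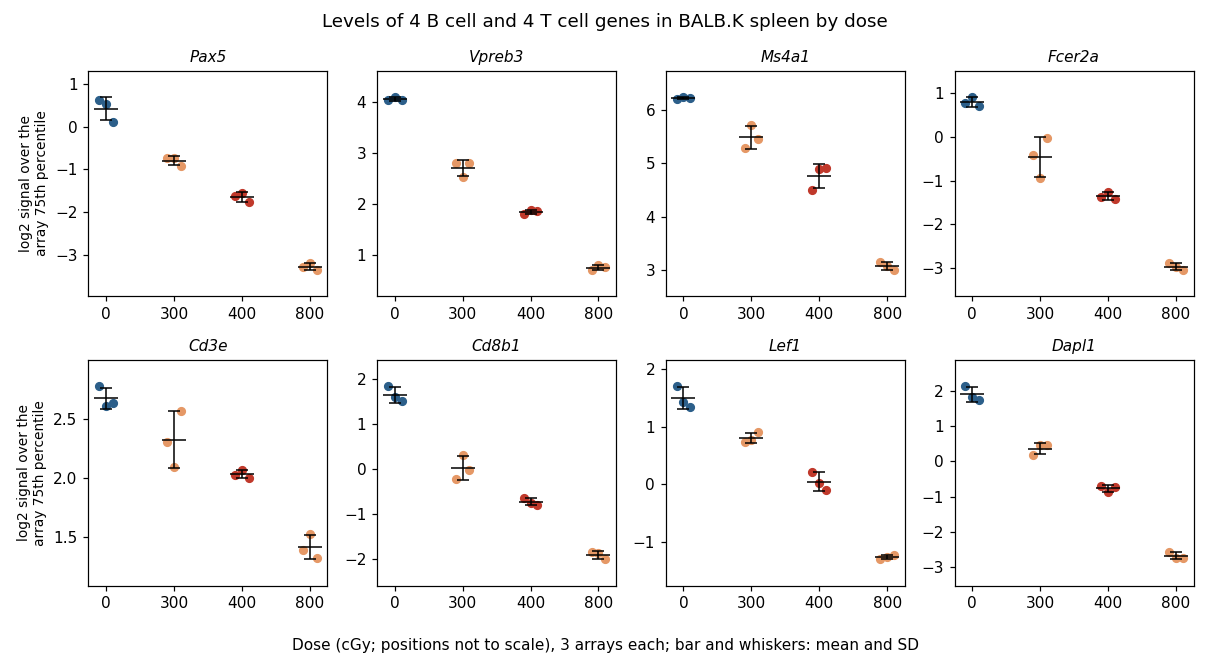
Log2 signal over the 75th percentile of the array (vertical axis) of 4 B cell genes (Pax5, Vpreb3, Ms4a1, Fcer2a) and 4 T cell genes (Cd3e, Cd8b1, Lef1, Dapl1) at 0, 300, 400 and 800 cGy (positions not to scale); each point is 1 array, with mean ± SD. The 400 cGy arrays of Pax5, at -1.77 to -1.55, lie below the 300 cGy arrays, at -0.92 to -0.73, and above the 800 cGy arrays, at -3.36 to -3.20.

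The genes of dividing and erythroid cells were low at every irradiated dose. The mitosis median was -2.79 at 300 cGy, -3.08 at 400 cGy and -3.12 at 800 cGy, and no mitosis gene passed between 400 and 300 cGy in limma. At an unadjusted p under 0.05, 4 of 10 checkpoint and kinase genes and 7 of 20 spindle and chromosome genes of that list were lower at 400 cGy. Of the replication genes, 5 of 31 were lower at 400 than at 300 cGy and none higher, 4 of them among the 15 origin licensing genes, and at an unadjusted p under 0.05 10 of those 15 and 9 of 16 DNA synthesis genes were lower. The count of 5 was 1 or 2 without any 1 of the 400 cGy replicates or without replicate 2 or 3 of the 300 cGy group, and 9 without replicate 1 of that group. The erythroid median was -2.69, -2.89 and -2.70 at those doses. Klf1 had -0.97, -0.13 and -1.16 at 300 cGy, -2.30, -1.57 and -1.71 at 400 cGy and -2.35, -2.62 and -2.74 at 800 cGy, lower at 400 than at 300 cGy (difference -1.11 ± 0.29, adjusted p = 0.0401; 0.137 with only the 6 arrays, and also not past the test without any 1 of the 400 cGy replicates or without replicate 2 or 3 of the 300 cGy group), while the difference from 800 cGy did not pass (0.71 ± 0.29, adjusted p = 0.102). The p53 target medians were 0.73, 0.91 and 0.95. Cdkn1a had 1.60, 1.76 and 1.95 at 300 cGy, 1.91, 1.91 and 2.15 at 400 cGy and 3.16, 3.20 and 3.26 at 800 cGy, so that the 400 cGy arrays overlapped those at 300 cGy (0.22 ± 0.10, adjusted p = 0.215) and lay below those at 800 cGy (-1.22 ± 0.10, adjusted p = 2.84e-07). Bbc3 at 400 cGy passed against neither dose (0.18 ± 0.10 and 0.11 ± 0.10).

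The lists that rose were divided in their course. Macrophage medians were 1.04 at 300 cGy, 1.25 at 400 cGy and 1.5 at 800 cGy, and platelet medians 0.63, 0.89 and 1.57, and 12 of 46 and 11 of 21 of these genes were lower at 400 than at 800 cGy. The platelet count was 6 and 3 without replicate 2 and 3 of the 400 cGy group, and 6 and 4 without replicate 1 and 2 of the 800 cGy group. Interferon medians were 1.40, 1.20 and 1.40, plasma cell medians 0.71, 0.65 and 0.70, and regulatory T cell medians 0.60, 0.46 and 0.22. Of 13 regulatory T cell genes, 6 were higher and 2 lower at 400 than at 800 cGy, Il2ra by 0.88 ± 0.10 and Foxp3 by 0.58 ± 0.10, and none was higher with spike-in scaling. The 2 lower ones were Lrrc32 and Izumo1r, neither of which passed without replicate 2 or 3 of either group. The heat shock genes differed in 4 of 6 cases, lower at 400 than at 800 cGy, with Hspa1a, an inducible HSP70, at -3.23 ± 0.80 (adjusted p = 0.00881). The 800 cGy arrays all carried exocrine pancreas signal (0.232 to 0.915% of the sum) and Y-linked signal, and their part in these differences was not tested. At 300 cGy, exocrine pancreas genes took 1.14, 0.25 and 0.0356% of the sum, against 0.255, 0.0050 and 0.0031% at 400 cGy. None of these 23 genes passed between 400 and 300 cGy in limma, while 11 were lower at 400 cGy at an unadjusted p under 0.05. The part of this signal in the differences between 400 and 300 cGy was not tested. The plot of list medians by dose shows both kinds of course, graded and level.

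**Figure D4:**
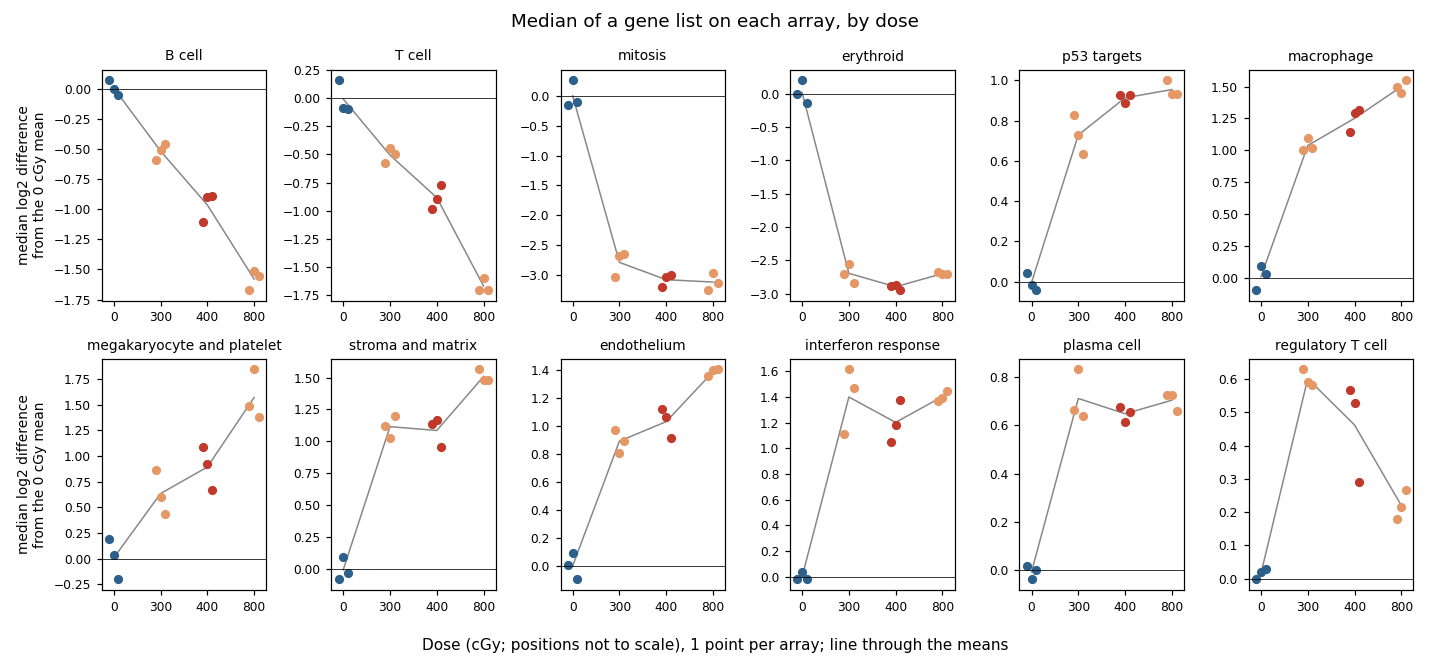
Median over each of 12 gene lists of the log2 difference from the 0 cGy mean (vertical axis) against dose (0, 300, 400 and 800 cGy, positions not to scale); each point is 1 array and the line joins the group means. The B and T cell medians step down to -0.96 and -0.88 at 400 cGy and -1.58 and -1.67 at 800 cGy, while the mitosis median is near -3 at all 3 irradiated doses.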

How the data were processed

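RNA of whole spleen, pooled from 3 mice per array, was hybridised to 24 one-colour Agilent mouse arrays (mm9 coordinates per the file headers) and read with Agilent Feature Extraction 10.5.1.1, per the submitters' processing notes. The deposited intensity was the processed signal, background-subtracted and spatially detrended per the file headers. The authors also deposited a table of log2 values, centred per probe, with no further processing stated; it served only as an alternative. Here, log2 signals were scaled by subtracting the array's 75th percentile (control probes aside), outlier-flagged spots were dropped and the spots of 1 probe averaged. Probes had to be well above background throughout at least 1 group of 3 arrays, and the brightest probe stood for each gene, which left 29532 genes from 42319 of 55681 probes. Probes were named through RefSeq (GRCm38.p6) by accession (26413), symbol (3859) or synonym (735), and 24674 kept the file's name. A mean per group was fitted in limma (version 3.58.1, under R version 4.3.3) to the whole set of 24 arrays, followed by eBayes, two-sided tests and Benjamini-Hochberg adjustment over all genes at 0.05. On simulated data for 400 against 0 cGy with 29532 genes, 67 of 100 genes changed by 1 log2 unit and 90 of 100 changed by 2 were recovered, with 3.68% false calls.

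The groups, gene lists, tests and members were chosen with earlier results of these data known. Genes were taken from a rule, and the text names part of them: the 12 largest rises and falls at 400 against 0 cGy, the largest between irradiated doses, up to 4 of the largest changes per role of each list, members that went against their list, and a few defining genes. Alas2, Cd4, Dcn, Dmtn, Foxp3, Hba-a1, Hbb-bt, Ifnb1, Ifng, Il6, Izumo1r, Mpo, Ms4a1, Slc40a1, Spic, Syk, Tnf and Vwf are named outside it, chosen after their values were seen. Every promoter printed above was taken from list members of large change whose promoter holds the motif in capitals. The presence of that motif in them was thus set by the choice. The deviations of same-numbered arrays at 400 and 0 cGy had correlations of 0.27, -0.05 and 0.21. The main fit did not take the numbers as pairs, though replicate 1 alone carried Y-linked signal in both groups. A fit with the replicate number as a block is given below as an alternative.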

Additional observations from a re-analysis of the deposited data

How the results depend on the processing

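At 400 against 0 cGy, the count of 15216 genes stayed within 1.5 times under every alternative, with 10320 under spike-in scaling at the low end and 15627 with no filter on dim probes at the high end, and 13547 to 14849 when each replicate was left out. With the slide as a block 11559 passed (5115 higher, 6444 lower), 9992 of them called the same way as before. The fit with the replicate number as a block called 15479, and a fit to the authors' values gave 14367. Leaving out the dim corner, an alternative chosen after seeing the data, gave 15384. Spike-in scaling moved the share of calls that rose to 64.2% in place of 49.5%, with a shift of the median gene to 0.097. Changes of at least 2-fold numbered 5670, and 3177 with normexp background correction.

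At 400 against 300 cGy (1439 genes), 4899 passed with median scaling, 662 with spike-in scaling, 2 with only the arrays compared (0 of the 1439 among them), 2346 with the slide as a block, 520 in the authors' value table and 2310 within 1 slide, and 265 to 2310 with a replicate left out. The share higher was 58.5%, against 47.2% with quantile normalization, 11.9% with median scaling, 98.6% with spike-in scaling, 100% with only the arrays compared, 69.6% in the authors' table, and 41.8% and 46.0% without replicate 3 of the 400 and the 300 cGy group. The median gene lay at 0.044, and at -0.154 and 0.209 with median and spike-in scaling. At 400 against 800 cGy (5564 genes), 3196 passed with spike-in scaling and 3195 to 4802 with a replicate left out; the share higher was 48.5%, against 64.6% with median and 9.73% with spike-in scaling, which moved the median gene to -0.307.

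Direction reversed for Hspa8 under quantile normalization (0.017), for Ifnar1 (0.043) and Xpo7 (-0.47) with the mean of a gene's probes, and for Lig4 (-0.070) and Fcer1a (0.37) with the slide as a block. The cause was not tested in any of these. Genes named at 400 against 0 cGy kept direction and call in 6047 values under alternatives and lost the call in 234.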

Other observations

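Some genes of large change stand in none of the lists. Slfn4, a member of the Schlafen family that interferon induces in myeloid cells, had log2 levels of 3.08, 3.39 and 3.69 in the 400 cGy spleens, against -0.42, -0.04 and 0.09 in the 0 cGy spleens, with no overlap and a change of 3.50 ± 0.21 (adjusted p = 1.34e-10). Ifit3b, a near copy of Ifit3, rose by 3.69 ± 0.19, and its probe may also read Ifit3. Gm10639, 5330411J11Rik and Zfp750, an epithelial transcription factor, were well above background on every 400 cGy array and on no 0 cGy array, and were at least 5.57-fold, 3.64-fold and 3.17-fold higher. Gm4951, in the dim corner, rose by 3.79 with it and by 2.51 without it. Among the falls, Slc30a10, a manganese exporter, was not well above background on any 400 cGy array and was at least 22.8-fold lower there. Slc25a21, a mitochondrial carrier, fell by 6.69, Slc38a5, an amino acid transporter, by 6.18, and Apol8 by 7.17. Nxpe2 (log2 change -6.12) and Tlcd4 (-5.86) also fell.

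Between 400 and 800 cGy, the genes with the largest difference included pancreatic Reg genes (Reg3a at least 23.2-fold lower at 400 cGy, and Reg2 lower, with a log2 difference of -7.99 ± 1.82) and the Y-linked Rbmy (-3.23 ± 0.96; not past the test without replicate 2 or 3 of the 400 cGy group or without any 1 of the 800 cGy replicates), beside Jhy, higher at 400 cGy by 2.95 ± 0.28. Between 400 and 300 cGy, Cpm, a membrane carboxypeptidase, was lower at 400 cGy (log2 difference -1.15 ± 0.10, limma, adjusted p = 1.93e-05), as was Matn4, a matrilin (-1.65 ± 0.32). Neither passed when only the 6 arrays compared were fitted (adjusted p = 0.068 and 0.075 in limma), and Matn4 did not pass without replicate 2 of the 300 cGy group.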
